A study of Homo sapiens with 14 samples.

Results

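C/D box small nucleolar RNA (snoRNA) genes, named SNORD followed by a digit, were examined in A375 cells, a human melanoma line, after changes to ZC3H18 (Z18), a zinc-finger protein that works with the nuclear RNA surveillance machinery. A SNORD gene was taken as a member when its FPKM (fragments scaled to the length of the gene and the size of the library), summed per symbol, reached at least 1 in 3 or more of the 14 libraries. Of 357 SNORD symbols listed, 137 met this rule, against 13050 of 28307 symbols of all kinds. Among the members, 81 reached the minimum in all 14 libraries. The members were chosen by their FPKM, so the levels below are a description, and only differences between groups of libraries were tested.

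RNA came from 5 groups, all of them A375. Bulk control populations (n = 3) carried a Cas9 vector without a guide RNA and were ZC3H18 WT, and bulk Z18 CRISPR populations (n = 3) received the same system with 1 guide against Z18, so edited and unedited cells were mixed. Single-cell clones were Z18 WT (n = 2), Z18 -/+ (heterozygous loss, n = 3) or Z18 trunc/+ (heterozygous truncation, n = 3), where the trunc/+ clones do not all carry the same truncating allele and each clone is 1 library. A lower level in a pool can come from fewer cells with the change or from less RNA per cell, which cannot be told apart here. P-values measure the spread between these libraries, which may be technical in part.

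C/D box snoRNAs are short nuclear RNAs that hold a box C near their start and a box D near their end, where the proteins SNU13, NOP56, NOP58 and the methyltransferase fibrillarin (FBL) assemble. Most guide ribose methylation of ribosomal RNA by pairing with it, and a few, such as U3 and U14, guide the cleavage of the ribosomal precursor. In human cells most are cut out of introns of host genes and trimmed from both ends, and the mature RNA has no poly(A) tail. RNA here was poly(A)-selected, so reads at a SNORD gene can come from mature snoRNA carried along, from unspliced or retained host introns, or from longer transcripts, and FPKM does not tell these apart.

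The libraries held 15615675 to 33018360 aligned fragments, with bulk control 3 (15615675), bulk control 2 (18531793) and -/+ clone 2 (18742399) the shallowest. Z18 stood at 38.1, 13.9 and 48.7 FPKM in the control pools, 10.4, 11.9 and 12.8 in bulk CRISPR, 23.5 and 22.0 in the WT clones, 16.2, 17.1 and 16.1 in -/+ and 14.3, 13.98 and 8.70 in trunc/+ clones. Bulk control 2 was thus close to the edited pools, while no control value overlapped them. Of the lineage markers, SOX10 and PRAME were above 1 FPKM in all 14 libraries, while MLANA and TYR, of the pigment programme, were listed at 0 in all of them. Blood markers PTPRC, CD3E and HBB, the epithelial CDH1 and EPCAM and the fibroblast COL1A2 and COL3A1 did not exceed 0.353 FPKM in any library. The fibroblast markers DCN and COL1A1 reached at most 0.563 and 1.01 FPKM, with COL1A1 above 1 FPKM in 1 library. LYZ, LUM and KRT14 reached 1 FPKM in 11, 12 and 13 libraries, and KRT8 and KRT18 in all.

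The genomic sequences of 13 members are printed from the hg38 genome at the positions the files give, 5′ to 3′ on the strand of the gene. Capitals mark a box C (TGATGA, searched in the first 20 bases) and a box D (CTGA, searched in the last 20 bases, last match). The first 3 are the members of highest median level, SNORD58B (chr18:49491664-49491729, minus strand, in RPL17), SNORD47 (chr1:173864369-173864445, minus strand, in GAS5) and SNORD104 (chr17:64146078-64146157, plus strand, in SNHG25).
SNORD58B: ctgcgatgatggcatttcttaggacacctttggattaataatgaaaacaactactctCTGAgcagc
SNORD47: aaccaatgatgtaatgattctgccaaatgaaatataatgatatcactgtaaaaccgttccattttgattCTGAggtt
SNORD104: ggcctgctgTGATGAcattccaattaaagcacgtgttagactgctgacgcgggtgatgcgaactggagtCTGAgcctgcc
The next 5 are the U14 genes, shown because their likeness bears on how reads were shared among them. SNORD14A (chr11:17074653-17074744, minus strand) and SNORD14B (chr11:17075778-17075868, minus strand) lie in RPS13, and SNORD14C (chr11:123059335-123059422, minus strand), SNORD14D (chr11:123058909-123058995, minus strand) and SNORD14E (chr11:123058077-123058156, minus strand) in HSPA8.
SNORD14A: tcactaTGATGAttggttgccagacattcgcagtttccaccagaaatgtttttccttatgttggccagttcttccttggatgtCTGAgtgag
SNORD14B: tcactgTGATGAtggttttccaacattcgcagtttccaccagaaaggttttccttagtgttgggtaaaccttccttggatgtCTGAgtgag
SNORD14C: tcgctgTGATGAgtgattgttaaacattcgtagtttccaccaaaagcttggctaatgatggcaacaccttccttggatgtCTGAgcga
SNORD14D: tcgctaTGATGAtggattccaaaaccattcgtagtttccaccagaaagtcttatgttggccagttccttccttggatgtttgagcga
SNORD14E: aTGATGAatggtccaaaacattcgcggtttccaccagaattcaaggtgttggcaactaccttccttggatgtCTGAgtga
The last 5 are members with large differences between groups, given further on. They are SNORD19C (chr3:52691378-52691444, plus strand, in GNL3), SNORD22 (chr11:62852910-62853035, minus strand, in SNHG1), SNORD48 (chr6:31835263-31835326, plus strand, in SNHG32), SNORD30 (chr11:62853663-62853732, minus strand, in SNHG1) and SNORD23 (chr19:47755853-47755962, plus strand, in NOP53).
SNORD19C: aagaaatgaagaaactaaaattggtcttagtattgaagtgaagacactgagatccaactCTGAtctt
SNORD22: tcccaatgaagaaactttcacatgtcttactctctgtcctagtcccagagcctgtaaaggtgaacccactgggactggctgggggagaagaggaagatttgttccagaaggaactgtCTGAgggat
SNORD48: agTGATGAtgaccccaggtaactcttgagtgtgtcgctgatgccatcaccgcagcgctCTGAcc
SNORD30: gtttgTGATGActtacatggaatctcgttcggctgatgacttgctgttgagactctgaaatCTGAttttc
SNORD23: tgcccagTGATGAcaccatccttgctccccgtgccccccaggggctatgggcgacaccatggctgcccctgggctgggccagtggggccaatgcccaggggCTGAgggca

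By these letters, read on the gene's own strand, 75 of 138 places of members (54.3%) held both boxes, as did 119 of 201 places of other SNORD genes (59.2%) and 0 of 190 places of H/ACA box SNORA genes. The box D letters were in 97.1% of member places and 11.6% of SNORA places, and the box C letters in 55.1% and 0.526%. SNORD47, SNORD58B, SNORD19C and SNORD22 had no exact TGATGA in the window and are shown with box D only, and SNORD14D is shown with box C only. Pairs of U14 genes were 72% to 86% identical over their whole length, with SNORD14A and SNORD14B the most alike.

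Nearly all members lay within a host gene on the same strand. A host was found for 133 of 137, in 61 hosts, of which 28 held 1 member and 18 held 3 or more. GAS5 held 10, SNHG1 held 7 and GNL3 held 5. Genes for ribosomal proteins (RPL and RPS) were 16 of the hosts with 39 members, and the SNHG genes, GAS5 and ZFAS1, whose spliced RNAs are known mainly as snoRNA carriers, were 12 with 38. Of 127 members with a host and 1 place of at most 300 bases, 0 touched an exon of the host's canonical GENCODE transcript. For SNORD3A and SNORD88A to SNORD88C no such transcript was found under the host's name, so they could not be scored. An exon of some annotated protein-coding or long noncoding transcript on the same strand, of the host or of another gene, was touched by 90. The median distance from the member's end to the next exon downstream was 99 bases (quartiles 77 and 359, 121 members).

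Levels spread widely among members and differed by the kind of host. The 10 highest members made up 42.3% of the sum of the median levels, and the 3 highest 21.2%. Members in SNHG genes, GAS5 and ZFAS1 had a median of 13.8 FPKM, those in ribosomal protein genes 6.77, those in other hosts 2.03 and the 4 without a host 1.92. FPKM is a level per length, so these can be set side by side, though for genes this short it depends on how fragments longer than the gene were counted.

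SNORD58B, a guide for the large-subunit rRNA within RPL17, was highest, at 176, 203 and 164 FPKM in the control pools, 224, 208 and 188 in bulk CRISPR, 119.8 and 133 in the WT clones, 116.04, 88.9 and 145 in -/+ and 80.1, 113 and 101 in trunc/+ clones. All 6 bulk libraries were above all 8 clones, and it was the only member with such a split, while none was lower in every bulk library. Among all 13050 genes by the same minimum, 4.35% were higher and 7.77% lower in every bulk library. Pools and clones differ in cloning as well as in other handling, which cannot be told apart. SNORD47, in GAS5, came second with 101, 87.3 and 100.3 FPKM in the controls, 106, 89.2 and 85.3 in bulk CRISPR, 119 and 96.2 in the WT clones, 89.8, 105 and 107 in -/+ and 46.9, 66.9 and 146 in trunc/+. Its groups overlapped and its 2 extremes were both trunc/+ clones. SNORD104, a large-subunit guide in SNHG25, stood at 99.0, 140.5 and 77.5, 123, 92.3 and 125, 54.1 and 64.6, 59.5, 39.4 and 38.5 and 29.5, 55.7 and 81.1 FPKM in the same order of groups, and of the clones trunc/+ clone 3 alone reached the level of the pools. The lowest values were those of trunc/+ clone 1 and -/+ clones 2 and 3. SNORD104 exceeded SNHG25 itself in every library, at 222% to 442% of the FPKM of its host.

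The next 7 in order of median were SNORD76 (64.1 FPKM), SNORD141B (56.5 FPKM), SNORD81 (44.8 FPKM), SNORD79 (39.5 FPKM), SNORD80 (36.4 FPKM), SNORD22 (34.7 FPKM) and SNORD49A (30.6 FPKM). Their ranges overlapped one another, so the order among these neighbours is not firm: SNORD76 ran from 30.9 to 115.5 FPKM and SNORD49A from 7.79 to 137. SNORD141B shares its 3 listed places with SNORD141A, 1 of them over an exon of EEF1A1, the abundant translation elongation factor, so reads of the 3 sources cannot be told apart.

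**Figure D1:**
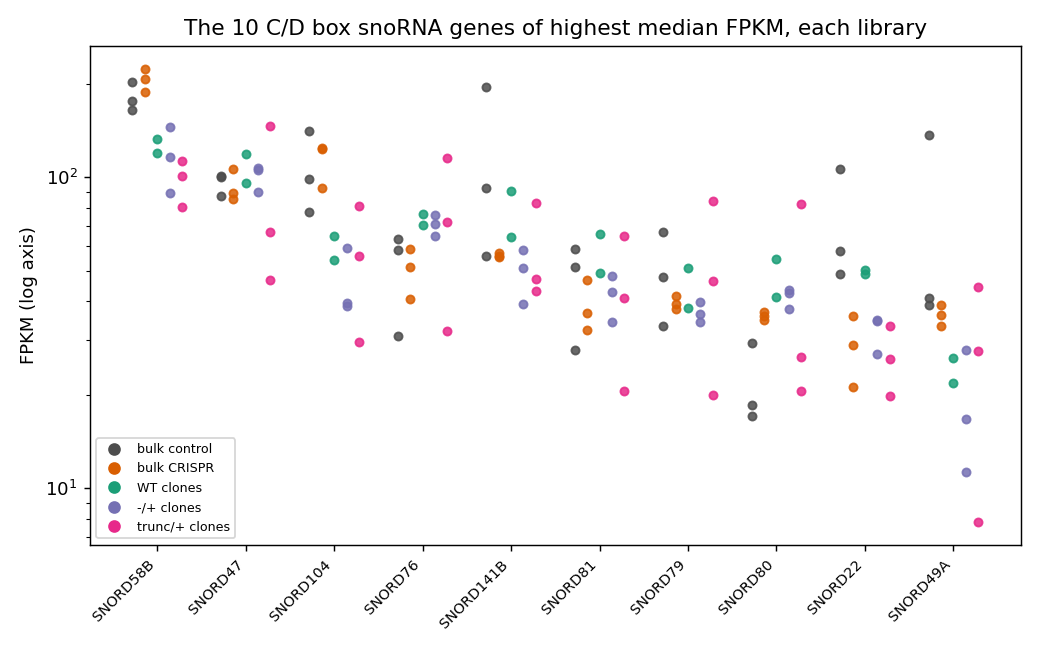
FPKM (log axis) of the 10 members of highest median level; each point is 1 library, coloured by group, with the groups side by side for each gene. SNORD58B is the highest, at 80.1 to 224 FPKM, and its bulk libraries lie above its clones.

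At the edge of the rule, the third-highest library decided membership. Just inside were SNORD98 (1.004 FPKM), SNORD167 (1.06 FPKM) and SNORD82 (1.10 FPKM) and just outside SNORD160 (0.859 FPKM), SNORD91A (0.885 FPKM) and SNORD103A (0.891 FPKM). No member passed through libraries of 1 group alone, 111 reached 1 FPKM in at least 1 library of all 5 groups, and no member was listed at 0 in a whole group while at 1 or above throughout another.

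Several SNORD genes with named roles fell outside the rule. SNORD118 (U8), which is needed for maturation of the large-subunit rRNA, did not exceed 0.143 FPKM, and SNORD13 (U13) 0.536; both are transcribed from promoters of their own. Of the imprinted clusters, none of 9 SNORD113, 31 SNORD114 and 48 SNORD115 copies were members. Of 30 SNORD116 copies, which lie in SNHG14 at the Prader-Willi locus, 3 were. SNORD116-4 was among the most varied members, at 0.105, 0.0178 and 0.181 FPKM in the controls, 2.26, 0.0883 and 8.05 in bulk CRISPR, 4.10 and 5.87 in the WT clones, 3.14, 0.152 and 3.71 in -/+ and 0.0820, 6.32 and 2.64 in trunc/+ clones. High and near-zero libraries occurred within the same group, and without overlap the -/+ clones and the controls were below the WT clones.

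The members of most varied level over the 14 libraries were SNORD27, SNORD3A and SNORD116-4 (SD of log2(FPKM + 1) 1.47, 1.33 and 1.21), and the least varied SNORD36C, SNORD47 and SNORD54 (0.322, 0.379 and 0.381). SNORD27, a small-subunit guide in SNHG1, stood at 15.2, 0.688 and 0.0708 FPKM in the controls against 8.51, 12.1 and 12.8 in bulk CRISPR, and at 8.49 to 34.3 in the clones. Controls 2 and 3 alone were below 1. SNORD36C, in RPL7A, stayed between 10.4 and 25.7 FPKM.

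Libraries of the same group differed over the whole set of members before any group was compared. The FPKM summed over the members was 1639.9, 1567 and 2481 in the controls, 1556, 1496 and 1588 in bulk CRISPR, 1663 and 1726 in the WT clones, 1417, 1328 and 1435 in -/+ and 783, 1367 and 2206 in trunc/+ clones. The highest sum was that of control 3 and the lowest that of trunc/+ clone 1, while trunc/+ clone 3 was the highest of the clones. The trunc/+ range thus enclosed every other clone.

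Trunc/+ clone 1 was the lowest of the 8 clones for 64 of 137 members (46.7%), against 15.6% of all genes by the same minimum. Trunc/+ clone 3 was the highest for 59 (43.1%), against 11.3% of all genes. Between these 2 clones the median member differed by 1.14 on the log2 scale and 121 of 137 were higher in clone 3. Their host genes differed by a median of 0.33, the SNORA and SCARNA genes (H/ACA and Cajal body RNAs) by 0.90 and all genes by -0.03. The clones had 33018360 and 28114254 aligned fragments, and no member was listed at 0 in either.

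Signal over repeats in the introns of the 59 hosts found by name in GENCODE followed these sums at their extremes but not throughout. It was 177, 189 and 306 CPM (fragments scaled to the aligned fragments of the library) in the controls, 153, 142 and 141 in bulk CRISPR, 171 and 197 in the WT clones, 177, 143 and 181 in -/+ and 97.5, 191 and 274 in trunc/+ clones. The lowest library and the 2 highest were those with the lowest and the 2 highest SNORD sums. Away from these they parted, since trunc/+ clone 2 had the third-lowest SNORD sum of the 14 libraries and the fourth-highest intron signal, and bulk CRISPR 3 a middling sum and the second-lowest signal. Over repeats in introns of all genes, trunc/+ clone 1 was also lowest (19241) and control 3 highest (28446), while trunc/+ clone 3 (25413) was close to trunc/+ clone 2 (25757). The part of intron signal in the SNORD values was not tested.

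**Figure D2:**
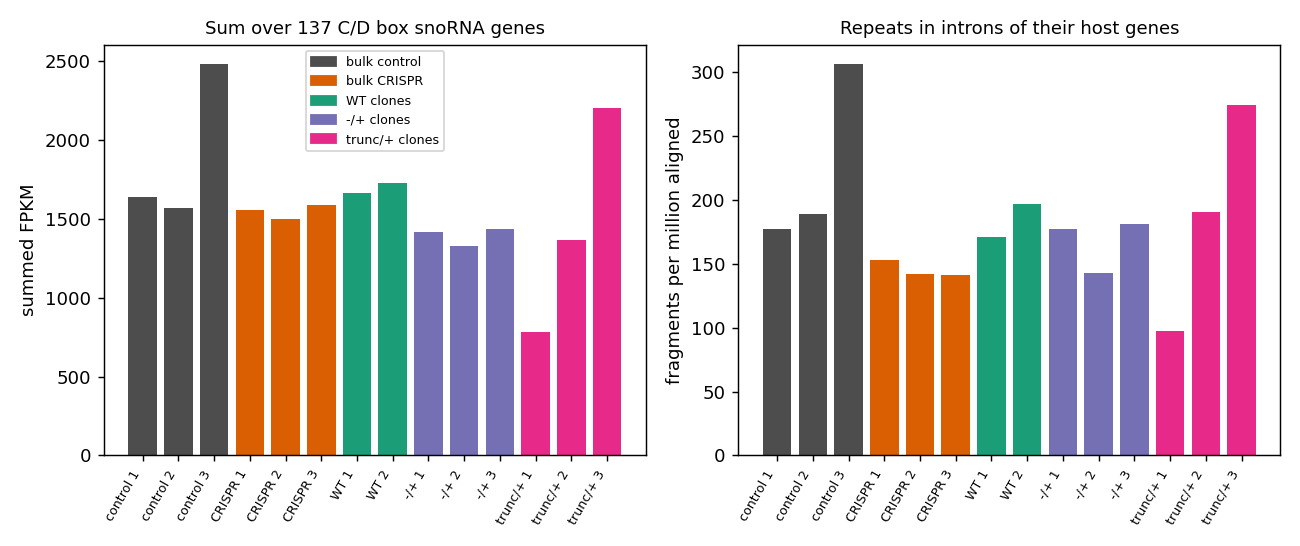
Left, FPKM summed over the 137 members in each library; right, fragments on repeats in the introns of their hosts, in CPM. Bars are single libraries, coloured by group; trunc/+ clone 1 is lowest in both panels (783 and 97.5) and control 3 highest (2481 and 306).

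The bulk controls also differed among themselves. Control 2 listed 17 members at 0 and control 3 13, against 0 to 8 in the other libraries. The median absolute difference over members between pairs of controls was 0.71 to 0.90 on the log2 scale, and 0.34 to 0.41 between bulk CRISPR libraries. The corresponding values over all genes were 0.42 to 0.54 and 0.13 to 0.19.

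Bulk Z18 CRISPR was compared with bulk control to ask whether SNORD levels moved when Z18 was edited in the pool. Fold changes (log2FC) are differences of mean log2(FPKM + 1), which understate the change of low genes. No SNORD gene passed the threshold (limma on log2(FPKM + 1), Benjamini-Hochberg adjustment over all genes). This covers the members that passed the filter on low values (22 did not). The smallest adjusted p (limma) was 0.0619, for SNORD19C. That gene passed the filter through the controls alone and so had to be lower in bulk CRISPR, which makes its value a description. It is also among the lower members counted below. Over all 12114 genes tested, 0.347% were called, 0.190% higher and 0.157% lower. Before adjustment 4 members were higher and 11 lower with p under 0.05 (all genes 14% and 6.93%). The groups did not overlap for 3 higher members (2.61%, all genes 21.8%) and 12 lower ones (10.4%, all genes 10.4%). The median log2FC of members was -0.11, against 0.18 for all genes, -0.08 for the hosts and 0.04 for SNORA and SCARNA genes. Quantile scaling moved the median of all genes to 0.03 and that of members to -0.33.

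The precision was lower for SNORD genes than for most genes. The 95% interval of the fold change reached 0.89 to either side for the median member and 0.63 for the median gene, on the log2 scale, and it lay within 1 for 33 members. Without control 1, 9 members were called lower and 5 higher (all genes 11.2%), a fit in which the controls are the 2 that stood apart. In 1 fit of all 14 libraries SNORD22 and SNORD38B were called (all genes 3.11%) and with quantile scaling SNORD46 (all genes 0.603%), each of them lower. With controls 2 and 3 left out together, which left control 1 as the only control, the median was -0.15.

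The members with the largest falls among those without overlap were SNORD38B, SNORD19C, SNORD38A, SNORD22 and SNORD46, and none passed the threshold. SNORD38B, a large-subunit guide, stood at 16.2, 42.5 and 45.8 FPKM in the controls and 6.07, 9.24 and 6.56 in bulk CRISPR. Controls 2 and 3 were far above control 1, which itself was above all edited pools (log2FC = -1.9997 ± 0.39 SE, 95% interval -2.90 to -1.10, adjusted p = 0.0889). SNORD38A stood at 15.1, 32.0 and 39.8 against 10.9, 11.6 and 8.48 FPKM, with the same order of controls (log2FC = -1.31 ± 0.35 SE, 95% interval -2.12 to -0.50, adjusted p = 0.137). For SNORD46 the values were 8.90, 5.28 and 10.1 against 3.11, 3.72 and 3.67 FPKM, and here control 2 was the lowest control (log2FC = -0.98 ± 0.28 SE, 95% interval -1.61 to -0.34, adjusted p = 0.147).

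SNORD19C, in the GTP-binding nucleolar protein gene GNL3, stood at 2.49, 4.71 and 3.80 FPKM in the controls and 0.874, 0.443 and 0.523 in bulk CRISPR. All edited pools were below 1 FPKM and all controls above it. It passed the filter on low values through the controls alone and so had to be higher there, and its fold change (log2FC = -1.51) is a description. SNORD22 in SNHG1, known to act in small-subunit rRNA processing, stood at 49.0, 58.1 and 106 against 28.9, 21.1 and 35.9 FPKM, with control 3 the highest library of all (log2FC = -1.23 ± 0.33 SE, 95% interval -1.99 to -0.48, adjusted p = 0.137). SNHG1 itself did not follow it, at 89.0, 60.5 and 25.4 and 86.7, 65.9 and 76.5 FPKM.

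3 members were higher without overlap, fewer than were lower. SNORD48, a large-subunit guide in SNHG32 that is much used as a reference RNA in PCR assays, stood at 5.77, 3.21 and 6.68 FPKM in the controls and 12.1, 13.9 and 11.3 in bulk CRISPR. The edited pools lay close together and above every control (log2FC = 1.15 ± 0.28 SE, 95% interval 0.50 to 1.80, adjusted p = 0.127). SNORD18C in RPL4 stood at 2.73, 1.26 and 0.990 against 3.23, 5.39 and 6.64 FPKM (log2FC = 1.21 ± 0.33 SE, 95% interval 0.46 to 1.96, adjusted p = 0.137), and SNORD80 in GAS5 at 29.4, 17.2 and 18.5 against 35.8, 34.9 and 37.0 (log2FC = 0.74 ± 0.24 SE, 95% interval 0.18 to 1.3005, adjusted p = 0.177). For SNORD80 control 1 was nearer to the edited pools than to the other controls, and neither gene passed the threshold.

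**Figure D3:**
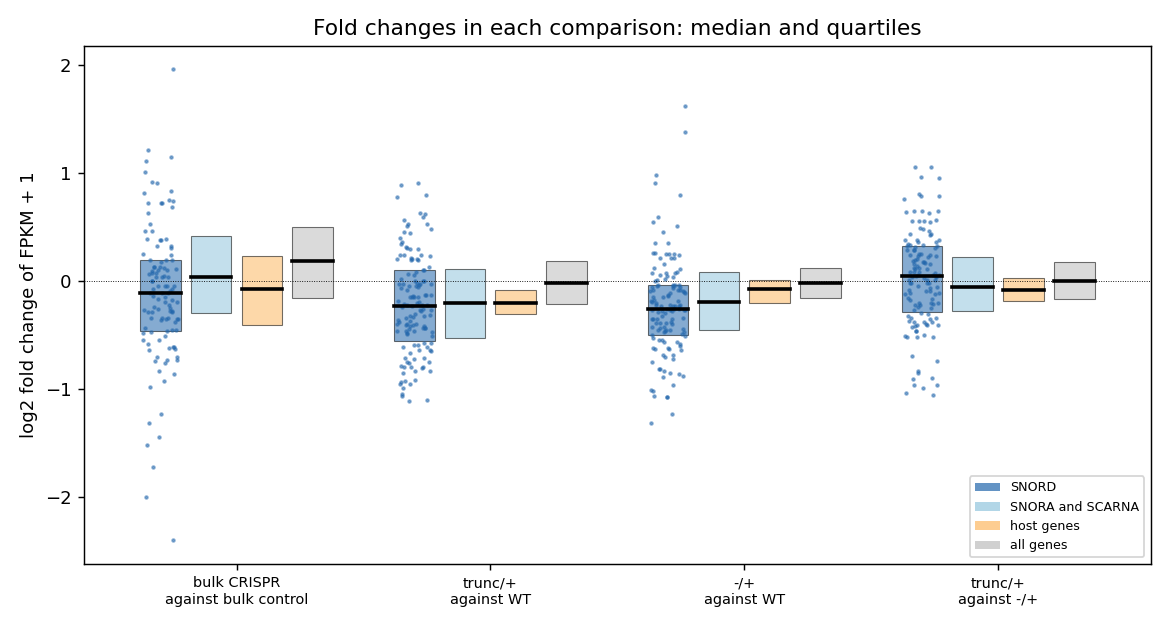
log2 fold changes in each comparison. Boxes give the quartiles and thick lines the median for SNORD members, SNORA and SCARNA genes, host genes and all genes; points are single SNORD members. The SNORD median lay at -0.11, -0.23, -0.26 and 0.05 from left to right.

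Among the clones, -/+ was first set against WT to compare cells with 1 working copy of Z18 and cells with both. No SNORD gene passed the threshold among 134 members tested, with every adjusted p at 1 (limma, all genes 0.00775% called). Before adjustment, 3 were higher and 2 lower with p under 0.05 (all genes 0.713% and 1.11%). The fold change was below 0 for 102 members, and the median was -0.26 against -0.02 for all genes, -0.08 for hosts and -0.19 for SNORA and SCARNA genes. All 3 -/+ clones were below both WT clones for 27 members (20.1%, all genes 8.44%) and above both for 5 (3.73%, all genes 6.16%). Of the hosts, 28.3% were lower without overlap, and of the SNORA and SCARNA genes 17.1%. The SNORD sums of the -/+ clones were all under those of WT, and 18 members had an interval within 1 on the log2 scale.

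The largest falls without overlap were in SNORD15B, SNORD14E, SNORD116-4, SNORD14D and SNORD1A. SNORD15B, a large-subunit guide in RPS3, stood at 7.68 and 7.57 FPKM in the WT clones, 2.47, 4.56 and 1.59 in -/+ and 0.942, 4.12 and 6.01 in trunc/+ clones. The WT clones were nearly equal and above all 6 others, which spread widely (log2FC = -1.23 ± 0.54 SE, 95% interval -2.48 to 0.02, adjusted p = 1 for -/+, and log2FC = -1.07 ± 0.54 SE, 95% interval -2.32 to 0.18, adjusted p = 0.685 for trunc/+). SNORD14E, a U14 gene, stood at 12.4 and 12.2 in WT against 6.09, 5.32 and 4.6002 in -/+, where each group was tight (log2FC = -1.07 ± 0.29 SE, 95% interval -1.75 to -0.40, adjusted p = 1). SNORD14D was more scattered, at 27.4 and 20.1 against 18.0, 6.44 and 10.4 (log2FC = -1.06 ± 0.49 SE, 95% interval -2.20 to 0.08, adjusted p = 1). SNORD1A in SNHG16 stood at 2.21 and 3.55 against 0.316, 1.999 and 0.719 FPKM.

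Rises without overlap were in SNORD1B, SNORD94, SNORD23, SNORD51 and SNORD87, none past the threshold. SNORD1B and SNORD94, which lies in PTCD3 and guides methylation of the U6 spliceosomal RNA, were below 1 FPKM in both WT clones, at 0.00941 and 0.207 and 0.184 and 0.1004. Neither could pass the filter through WT, so their rises are a description. In the -/+ clones SNORD1B stood at 4.04, 1.67 and 1.92 and SNORD94 at 1.42, 4.07 and 1.12 FPKM. Among the clones, SNORD23, in the ribosome biogenesis factor gene NOP53, was higher in -/+ than in both other genotypes. It stood at 1.27 and 1.44 FPKM in the WT clones, 3.80, 3.51 and 3.63 in -/+ and 1.68, 1.04 and 1.03 in trunc/+ clones. The -/+ values were close together and above the other 5 clones (log2FC = 0.98 ± 0.20 SE, 95% interval 0.52 to 1.44, adjusted p = 1). In the pools SNORD23 stood at 3.61, 14.2 and 27.2 FPKM in the controls and 2.54, 4.43 and 4.15 in bulk CRISPR. Pools that were ZC3H18 WT thus reached or exceeded the level of the -/+ clones. NOP53 stood at 209 and 159.9 FPKM in the WT clones, 169, 119 and 126 in -/+ and 156, 123 and 132 in trunc/+.

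Trunc/+ was then set against WT. Again no SNORD gene passed the threshold among 134 tested, with a smallest adjusted p of 0.536 (limma, all genes 0.00775% called), and 1 was higher and 8 lower with p under 0.05 before adjustment (all genes 3.29% and 4.30%). Groups did not overlap for 15 lower members (11.2%, all genes 15.4%) and 6 higher ones (4.48%, all genes 10.6%). The median log2FC was -0.23 (all genes -0.02, hosts -0.21), and leaving out trunc/+ clone 1 gave 0.05. Leaving out trunc/+ clone 3 gave -0.52, and leaving out both gave -0.19. The sign of the SNORD median thus turned only with clone 1 left out and clone 3 kept. The comparison shares the WT clones with that of -/+.

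SNORD30 in SNHG1, a large-subunit guide, had the largest fall without overlap, at 25.6 and 28.7 FPKM in the WT clones, 25.5, 24.6 and 18.3 in -/+ and 7.40, 14.03 and 16.6 in trunc/+ clones. All trunc/+ clones were below all other clones, clone 3 included, although 59 members were highest there (log2FC = -1.11 ± 0.31 SE, 95% interval -1.83 to -0.39, adjusted p = 0.559). SNORD22, its neighbour in SNHG1, stood at 50.3 and 49.0 in WT against 19.8, 26.0 and 33.3 FPKM in trunc/+ (log2FC = -0.92 ± 0.22 SE, 95% interval -1.43 to -0.41, adjusted p = 0.536), with the -/+ clones between 27.1 and 34.8. SNORD15A, the second guide in RPS3, stood at 2.52 and 4.03 against 0.652, 1.81 and 1.80 FPKM, and SNORD62B in PRRC2B, whose listed interval is shared with SNORD62A, at 1.86 and 1.52 against 0.172, 0.498 and 0.399. Of the rises, SNORD94 went from 0.184 and 0.1004 FPKM in WT to 1.22, 1.25 and 0.978 in trunc/+. SNORD3B-2 and SNORD84 had log2FC of 0.78 and 0.52, with adjusted p of 0.658 and 0.760 (limma). SNORD3B-2 is a U3 symbol listed at 2 places, and its summed FPKM cannot be assigned to 1 of them. SNORD1B and SNORD125 made up the 5, with log2FC of 0.79 and 0.53. SNORD94, SNORD1B and SNORD125 were under 1 FPKM in both WT clones and SNORD62B in all trunc/+ clones, so they passed the filter through other groups and these values are a description.

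Trunc/+ against -/+ compares the 2 altered genotypes directly. No SNORD gene passed the threshold (smallest adjusted p = 0.785 in limma, all genes 0% called), and 1 was higher and 8 lower with p under 0.05 before adjustment (all genes 3.12% and 3.16%). Groups did not overlap for 7 lower members (5.22%, all genes 6.45%) and 0 higher ones (all genes 4.79%). The median log2FC was 0.05, 0.32 without trunc/+ clone 1, -0.23 without trunc/+ clone 3 and -0.02 without both. SNORD23 (log2FC = -1.06 ± 0.18 SE, 95% interval -1.47 to -0.65, adjusted p = 0.785) led the falls, followed by SNORD17 in SNX5 at 8.68, 15.7 and 18.0 FPKM in -/+ against 5.07, 7.17 and 6.10 in trunc/+ (log2FC = -1.04 ± 0.26 SE, 95% interval -1.65 to -0.43, adjusted p = 0.785). SNORD67 in CKAP5, also a guide for a spliceosomal RNA, stood at 1.12, 1.46 and 2.30 against 0.333, 0.206 and 0.356 FPKM, with all trunc/+ clones under 1, so that it passed the filter through the other groups (log2FC = -0.99, a description). SNORD3A and SNORD62B made up the 5, with log2FC of -0.96 and -0.90 and an adjusted p of 0.800 for SNORD3A.

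Members of 1 host share a primary transcript, and the largest clusters were compared with their hosts. The 10 GAS5 members summed to 362, 285 and 432 FPKM in the controls, 366, 353 and 342 in bulk CRISPR, 434 and 454 in the WT clones, 368, 386 and 386 in -/+ and 176, 326 and 655 in trunc/+ clones. GAS5 itself, a spliced noncoding RNA, stood at 450.2, 588 and 226, 554, 564 and 496, 569 and 556, 507, 366 and 354 and 353, 279 and 647 FPKM in the same order. The sum was nearly level over the bulk CRISPR and -/+ libraries and spread most in trunc/+. Control 3 had the lowest GAS5 and a cluster sum of 191% of it, against 48.4% to 117% elsewhere. Such a share adds the levels of 10 members and does not by itself place any of them above GAS5.

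Within GAS5 the members kept unequal levels. SNORD47 and SNORD76 had medians of 98.2 and 64.1 FPKM, SNORD81, SNORD79 and SNORD80 of 44.8, 39.5 and 36.4, SNORD44 and SNORD78 of 25.8 and 25.2, and SNORD74, SNORD77 and SNORD75 of 13.95, 10.8 and 8.79. SNORD74 was most scattered in the pools, at 13.6, 4.47 and 45.9 FPKM in the controls and 22.2, 36.3 and 42.7 in bulk CRISPR, against 12.7 to 14.4 in the WT and -/+ clones and 4.34, 8.73 and 23.9 in trunc/+. SNORD77 was high in WT, at 24.1 and 20.8 FPKM, against 13.9, 12.2 and 9.88 in -/+ and 6.67, 11.7 and 21.3 in trunc/+ (log2FC = -0.86 ± 0.39 SE, adjusted p = 1 for -/+).

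The 7 SNHG1 members summed to 160.1, 97.7 and 272 FPKM in the controls, 100.1, 97.5 and 144 in bulk CRISPR, 217 and 251 in the WT clones, 171, 192 and 150.3 in -/+ and 76.5, 150.1 and 233 in trunc/+ clones. Both WT clones were above all -/+ clones, and control 3, trunc/+ clone 3 and the WT clones were the 4 highest. The sum exceeded SNHG1 in every library, from 115.5% of it in bulk CRISPR 1 to 1074% in control 3. SNHG1 was at its lowest there (25.4 FPKM). This share adds the levels of 7 members and does not by itself place any of them above SNHG1. In control 3 the neighbours did not move together: SNORD26 stood at 80.2 FPKM, SNORD22 at 106 and SNORD27 at 0.0708.

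**Figure D4:**
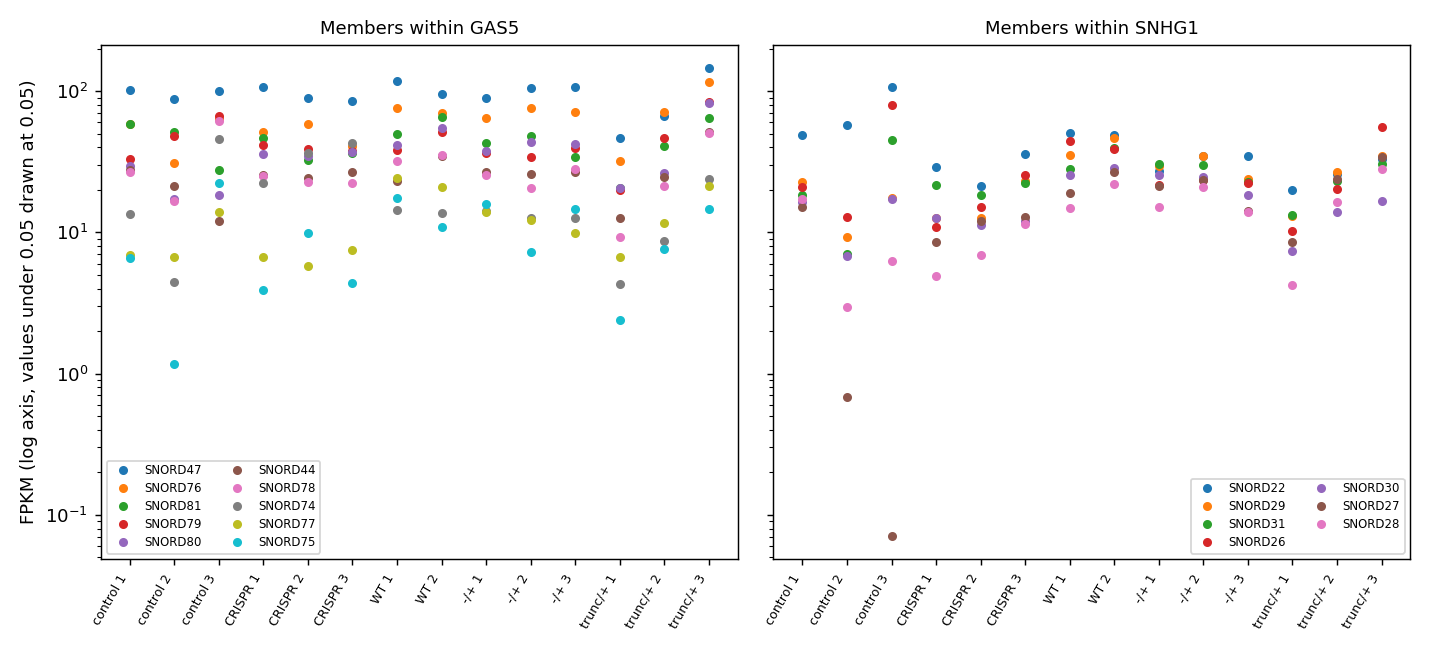
FPKM (log axis) of the 10 members within GAS5 (left) and the 7 within SNHG1 (right), 1 point for each member and library, with colours for members. Trunc/+ clone 1 is low and clone 3 high for most members, and SNORD27 drops to 0.0708 FPKM in control 3.

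In RPL13A, a large-subunit ribosomal protein gene, SNORD32A, SNORD33, SNORD34 and SNORD35A summed to 38.8, 18.8 and 36.7 FPKM in the controls, 34.1, 28.2 and 35.5 in bulk CRISPR, 37.7 and 29.9 in the WT clones, 28.8, 14.5 and 22.5 in -/+ and 15.9, 33.9 and 37.4 in trunc/+ clones. This was 0.247% to 1.75% of the host, and the groups of the pools and of the genotypes trunc/+ and WT overlapped, while all -/+ sums were below both WT sums. Control 2 had the highest RPL13A (7637 FPKM) with a low SNORD sum.

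A host that changed while its members overlapped was C19orf48, the 1 host of 60 tested that was called in the bulk comparison. It fell from 66.2, 69.8 and 59.1 FPKM in the controls to 21.0, 20.8 and 22.9 in bulk CRISPR (log2FC = -1.55 ± 0.19 SE, adjusted p = 0.0229 in limma). SNORD88A, SNORD88B and SNORD88C, which lie in it, summed to 17.01, 7.07 and 24.99 and 16.7, 18.2 and 15.6 FPKM, with every edited pool inside the control range. SNORD88B, the highest of them, stood at 9.79, 6.07 and 18.6 against 12.4, 10.6 and 8.59 FPKM (log2FC = 0.00 ± 0.37 SE, 95% interval -0.85 to 0.85, adjusted p = 0.999). The interval for SNORD88B lies above the fold change of the host, but the difference between the 2 was not tested. In the clones C19orf48 ranged from 20.2 to 52.5 FPKM and the cluster from 3.43 to 11.99.

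U14 and U3, which act in cleavage of the ribosomal precursor, are also annotated as repeat copies, so the same libraries give a second readout of them as fragments counted by the repeat pipeline. Summed over the 5 U14 genes, estimated counts reached 149, 65 and 96 in the controls, 161, 153 and 217 in bulk CRISPR, 297 and 312 in the WT clones, 186, 93 and 115.3 in -/+ and 154, 147 and 354 in trunc/+ clones. Most fragments were unique to 1 copy, with unique counts from 55 to 342. In CPM they came to 5.59, 3.51 and 6.15, 5.73, 4.90 and 6.77, 10.7 and 9.68, 7.49, 4.96 and 4.83 and 4.66, 5.28 and 12.6 in the same order. Trunc/+ clone 3 and the WT clones were the 3 highest by this readout and by FPKM, where the 5 genes summed to 98.7 and to 77.9 and 70.9.

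For the 5 U14 genes, FPKM and the repeat readout gave similar orders of libraries (Spearman's rho 0.837 to 0.974 over 14 libraries). This is a description, since both come from the same reads. SNORD14E had 51 and 57 estimated counts in the WT clones, 21, 13 and 16 in -/+ and 21, 21 and 41 in trunc/+, so that -/+ was below WT by both readouts. SNORD14C reached 91 and 103 in the WT clones, 61, 45 and 34 in -/+ and 33, 29 and 113.5 in trunc/+, and only trunc/+ clone 3 exceeded WT. In control 2, SNORD14B and SNORD14C had 5 counts each, so values there rest on few fragments.

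**Figure D5:**
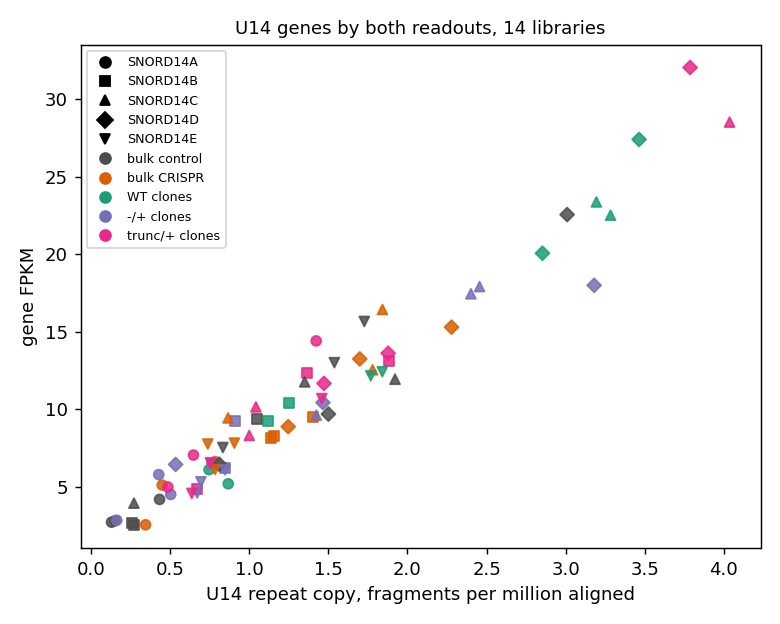
FPKM of the 5 U14 genes against fragments on the U14 repeat copy within each, in CPM; 1 point for each gene and library, with shapes for genes and colours for groups. The points lie along 1 band, and the highest FPKM is SNORD14D in trunc/+ clone 3 (32.0).

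SNORD3A, a U3 gene, stood at 1.70, 29.8 and 42.3 FPKM in the controls, 2.47, 1.60 and 1.72 in bulk CRISPR, 8.04 and 1.94 in the WT clones, 5.45, 2.69 and 7.87 in -/+ and 1.63, 2.05 and 2.59 in trunc/+ clones. Controls 2 and 3 were far above the other 12 libraries, and control 1 lay within the edited pools (log2FC = -2.40 ± 0.91 SE, 95% interval -4.48 to -0.32, adjusted p = 0.206). Estimated counts on its U3 copy came to 25.6, 134 and 180.0 in the controls and 43.5, 34.8 and 21.9 in bulk CRISPR, and the unique ones 19, 85 and 75 and 32, 28 and 15. SNORD3A and SNORD3D are 98.6% identical, so how reads were split between U3 genes is uncertain. SNORD3D, on the same chromosome, stood at 2.39, 6.20 and 11.8 FPKM in the controls and 2.42, 2.75 and 3.06 in bulk CRISPR, with control 3 highest by FPKM. The repeat readout did not follow it, with 6.28, 30.5 and 0 estimated counts in the controls and 2.68, 0 and 3.56 in bulk CRISPR, and at most 5 unique counts in any of the 14 libraries.

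The proteins that build and trim these RNAs were read from 3 gene lists. Of 16 genes for box C/D particle and assembly proteins tested in the pools (15 in the clones), 0 were called higher and 0 lower in any of the 4 comparisons. The median log2FC of the list was -0.01 for bulk CRISPR, -0.24 for trunc/+ against WT, 0.04 for -/+ against WT and -0.30 for trunc/+ against -/+. FBL, the methyltransferase, had the lowest fold change of the list in the pools (-0.75, adjusted p = 0.174) and in trunc/+ against WT (-0.78, adjusted p = 0.396). It was called in neither. Before adjustment 1 gene of the list was lower with p under 0.05 in the pools, 4 in trunc/+ and 1 in -/+ against WT and 6 in trunc/+ against -/+, and none was higher. The shares of all genes lower in this way were 6.93%, 4.30%, 1.11% and 3.16% in the same order, and the next lists can be read against them.

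Of 19 genes of intron release, trimming and decay, which include Z18, none was called in any comparison (limma), with medians of 0.36 in the pools, -0.20 for trunc/+ against WT, -0.04 for -/+ against WT and -0.17 for trunc/+ against -/+. Z18 was the lowest of this list in the pools (-1.28), in trunc/+ (-0.86) and in -/+ against WT (-0.44). Before adjustment 1 gene of the list was higher and 2 lower with p under 0.05 in the pools, and 3 were lower in trunc/+ against WT, 0 in -/+ against WT and 1 in trunc/+ against -/+. The 38 genes of a list of known snoRNA hosts had 0 calls in all 4 comparisons (1 higher and 5 lower before adjustment in the pools, and 5, 0 and 2 lower in the clones in the same order), and SNHG8 had the lowest fold change in the pools (-1.31, adjusted p = 0.136) and in trunc/+ against WT (-0.68, adjusted p = 0.547).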

How the data were processed

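Poly(A)-selected, stranded RNA-seq libraries of A375 cells were sequenced as paired ends, and reads were trimmed with cutadapt 4.6 per the submitters' processing notes. The authors obtained FPKM, TPM and coverage (mean depth per base, a signal) for each RefSeq gene with StringTie on hg38, and these values were deposited per library. The authors counted fragments on repeat copies with SQuIRE, and the deposited files give estimated counts (shared among copies), the count of unique fragments and the count of aligned fragments. The members and gene lists were chosen with earlier results of these data known.

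FPKM was summed per symbol, and log2(FPKM + 1) was fitted with limma 3.58.1 (trend, R 4.3.3). The 6 bulk libraries and the 8 clones were fitted apart. Genes needed FPKM of at least 1 in 3 bulk libraries, or in 2 clones. P-values were adjusted over all genes tested, with a threshold of 0.05, and fold changes on this scale understate those of low genes. The script was tested on simulated data. The number of columns left out for lack of a sample was 0. Named members were those called, or otherwise the 5 largest rises and 5 largest falls among members whose groups did not overlap, the 10 of highest median, the 3 on either side of the rule, the 3 most and 3 least varied, members of known role or host (U3, U8, U13, U14, GAS5, SNHG1, RPL13A, imprinted clusters) and the hosts of named members. SNORD3D and SNORD88A to SNORD88C with C19orf48 were added after their values were seen. Some genes and 1 sequence are not reported here. Intron positions came from GENCODE release 44 (hg38). Coverage of the median member was 16.01 to 62.1 per base across libraries.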

Additional observations from a re-analysis of the deposited data

How the results depend on the processing

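In the bulk comparison, 0 members were called as reported, and 2 with all 14 libraries in 1 fit, 1 with quantile scaling and 4 with the replicate number as a block (SNORD38B, SNORD19C, SNORD3A and SNORD22, with 1.82% of all genes called). Leaving out 1 library gave 0 to 14 called, the 14 without control 1 and 0 otherwise, and in the fit without control 1 or with the block SNORD38B, SNORD19C and SNORD3A were called in both, SNORD19C after passing the filter through the controls alone. Same-numbered libraries did not deviate together (r = -0.17, -0.22 and 0.18 in the pools, -0.55 to 0.51 in the clones), so the numbers were not taken to pair the samples. Both pseudocounts, TPM and both filters gave 0. In the clones 0 members were called under every alternative run. The median log2FC ranged, leaving out 1 library, over -0.39 to -0.01 in the pools, -0.52 to 0.05 for trunc/+ against WT, -0.32 to -0.21 for -/+ against WT and -0.23 to 0.32 for trunc/+ against -/+. For -/+ against WT it was -0.15 with a pseudocount of 5, -0.39 with the block and -0.32 without WT clone 1. The number of members was 153 at a minimum of 0.5 FPKM, 86 at 5, 143 in 2 libraries, 121 in 6, 81 in all 14 and 154 with TPM. The cause of these changes was not tested. The 2 fits with several libraries left out together were chosen after seeing the data, and assume that the single library left varies like the others. The fold changes of named members changed sign in 5 of 180 values in the pools, 1 of 238 for trunc/+ against WT, 2 of 192 for -/+ against WT and 4 of 136 for trunc/+ against -/+. No group held 4 or more libraries, so none was checked for a library far from the rest of its group.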
